A study of Mus musculus with 4 samples.

Results

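The B cells of the mouse hindpaw were described in 4 single-cell libraries of CD45+ leukocytes, and 675 of the 27800 barcodes kept from those libraries were B cells. The cells were chosen by measured values. A barcode with at least 200 detected genes and at most 10% mitochondrial unique molecular identifiers (UMIs, each 1 counted transcript molecule) was a B cell when Cd79a, Cd79b and Ebf1 summed to at least 3 UMIs with Cd79a at 1 or more, when C1qa, C1qb and C1qc summed to under 5 UMIs, and when Cd3e was at 0. The levels of these 7 genes in the chosen cells are therefore no finding. The series compared male Lepr db/db mice on the C57BLKS/J background (DB), a model of obesity with type 2 diabetes in which the receptor for leptin is defective, with wild-type controls (WT). Both genotypes were taken at 12 and 21 weeks, which GEO's labels call young and aged, and the paws were not injured. Each of the 4 groups was a single library from 2 to 3 pooled mice. Where 4 values are given in a row they follow one order, first 12-week-WT, then 12-week-DB, and after these the 21-week libraries with WT again before DB. A difference between groups therefore had no replicate check, no test between groups was possible, and every 95% interval given here covers counting error only. The db allele is carried by every cell of the animal, so the B cells themselves were of the mutant genotype. Both hindpaws were cut at the ankle after perfusion, digested with collagenase and sorted for CD45.

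B cells develop in the bone marrow. Progenitors cut and rejoin their immunoglobulin gene segments with the RAG1 and RAG2 recombinase, and terminal deoxynucleotidyl transferase, the product of Dntt, adds bases at the joints. The first heavy chain is tested on the cell surface with the surrogate light chain, made from Vpreb1 or Vpreb2 and Igll1 (also called lambda5), after which the cells divide and rearrange a kappa or lambda light chain. Immature cells then leave the marrow with IgM, gain IgD and CD23 (Fcer2a) as they mature, and recirculate through lymphoid organs and tissues, where a minority become plasma cells that secrete antibody with the joining chain, Jchain.

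The selecting genes encode the signalling pair of the B cell receptor and a factor of early B cell identity. Cd79a (Ig-alpha, ENSMUSG00000003379) lies on mouse chromosome 7 from 24897381 to 24902197 on the plus strand of GRCm38. Cd79b (Ig-beta, ENSMUSG00000040592) lies on chromosome 11 from 106311341 to 106314762 on the minus strand, and Ebf1 (ENSMUSG00000057098) on chromosome 11 from 44617317 to 45008091 on the plus strand. The surrogate light chain genes Igll1 and Vpreb1, which separate the 2 ages below, lie 4.417 kb apart on the minus strand of chromosome 16, from 16860671 to 16863985 and from 16868403 to 16870843. Upstream sequence is shown for a selecting gene and for Igll1, since both are known targets of EBF1 and both carried UMIs in the cells described here. The printed stretches end before the first annotated exon. Capitals mark matches to CCCNNGGG or to the shorter related form TCNNGGG, searched on both strands as letters of the EBF1 motif (the forms can overlap). They were taken from RefSeq on GRCm38.p6, at chr7:24897247-24897380 (plus strand) and chr16:16863986-16864235 (minus strand).
Cd79a: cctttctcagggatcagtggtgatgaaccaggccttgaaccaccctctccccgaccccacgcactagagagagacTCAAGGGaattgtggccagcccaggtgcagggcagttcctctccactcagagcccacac
Igll1: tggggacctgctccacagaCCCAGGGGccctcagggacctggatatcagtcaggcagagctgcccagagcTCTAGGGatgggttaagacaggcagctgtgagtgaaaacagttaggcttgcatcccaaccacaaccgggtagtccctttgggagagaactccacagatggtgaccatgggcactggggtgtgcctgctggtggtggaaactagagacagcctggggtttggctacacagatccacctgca
Of 32851 upstream windows of 250 bases in the same table, 3882 (11.8%) held CCCNNGGG and 15107 (46.0%) held TCNNGGG, so the shorter form is common. The window of Vpreb1 held 3 matches to TCNNGGG, and those of Dntt, Rag1 and Ebf1 held neither form. A match is a description of letters and not a binding site.

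The identity of the cells was checked with genes that the selection did not use. Ighm, the constant region of IgM, had a UMI in 98.8%, 96.9%, 98.0% and 88.2% of the B cells. The kappa constant region Igkc was found in 94.5%, 94.9%, 94.9% and 96.1% of the same cells. Both genes were present in nearly all members of every library, so the name B cell was kept. Cd3e-positive T cells, which make no antibody, had Ighm in 26.7%, 18.9%, 15.4% and 3.29% of cells and Igkc in 6.01%, 3.44%, 3.97% and 8.68%. The T cells were deeper, with medians of 6268, 5479, 6926 and 5417 UMIs against 3586, 2672, 3818 and 3509 in the B cells. The surface protein CD20 (Ms4a1) had a UMI in 80.2%, 74.5%, 84.3% and 82.4% of the B cells. Pax5, the factor that holds cells in the B lineage, was found in 75.1%, 67.3%, 76.6% and 47.1%.

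The selection limit cut through few cells. At a summed count of 2 for Cd79a, Cd79b and Ebf1 there were 15 barcodes, at exactly 3 there were 10, and 665 of the 675 members had 4 or more. Ighm was present in 13 of the 15 barcodes just outside and in 8 of the 10 just inside. A further 26 barcodes met the sum but were left out for their C1q counts and 39 for Cd3e, and 88.5% and 97.4% of these had Ighm. The B cells held 1460804, 419765, 887875 and 207209 UMIs. Levels are given as CPM, the UMIs of a gene scaled to a common total of B cell UMIs, and 1 UMI is worth 4.83 CPM in 21-week-DB against 0.685 CPM in 12-week-WT. A count of 0 allows up to 3 UMIs, which is 2.05, 7.15, 3.38 and 14.5 CPM. At least 3 UMIs of macrophage, T cell, mast cell or neutrophil markers were carried by 35.9%, 17.3%, 18.8% and 27.5% of the B cells, and a doublet score marked 9, 3, 5 and 6 of them.

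Some barcodes occurred in more than 1 library. The 12-week libraries shared 38 kept barcodes and the 21-week libraries 146, while the other pairs shared between 5 and 18. One barcode was a B cell in both 12-week libraries. It had 44397 UMIs in 12-week-WT, the deepest B cell of that library, and 1110 UMIs in 12-week-DB. A second deep cell of 12-week-WT, with 23136 UMIs, had its barcode kept at 569 UMIs in 12-week-DB without being a B cell there. Both are precursor cells in 12-week-WT, and the precursor shares and the levels of the 6 stage genes are given with and without barcodes found in several libraries.

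B cells were scarcer in DB than in WT at both ages and scarcer at 21 than at 12 weeks in both genotypes. They were 329 of 5271 kept barcodes in 12-week-WT (6.24%, exact binomial interval 5.60 to 6.93) and 98 of 6552 in 12-week-DB (1.50%, 1.22 to 1.82). At 21 weeks they were 197 of 7270 in WT (2.71%, 2.35 to 3.11) and 51 of 8707 in DB (0.586%, 0.436 to 0.769). The 4 intervals did not overlap. The DB share was 0.240 times the WT share at 12 weeks (0.192 to 0.299) and 0.216 times at 21 weeks (0.159 to 0.294), which is 4.17-fold and 4.63-fold lower. Between ages the share at 21 weeks was 0.434 times that at 12 weeks in WT and 0.392 times in DB. A share can move because another cell type moves, so macrophage barcodes (C1q at 5 UMIs or more) were also left out of the total. The shares then were 9.45%, 2.13%, 3.57% and 0.716%, and the DB/WT ratios 0.226 and 0.201. Leaving out barcodes found in several libraries gave ratios of 0.234 and 0.218. Leaving out cells with 3 or more UMIs of other lineages gave 0.309 at 12 weeks and 0.193 at 21 weeks.

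**Figure D1:**
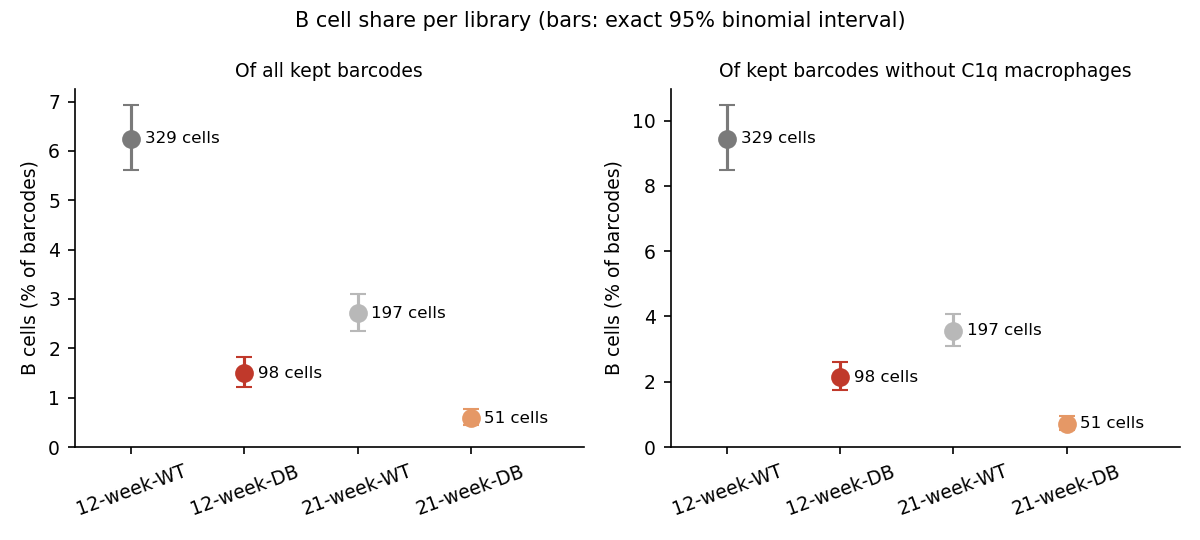
Share of kept barcodes that were B cells in each library, in percent, with exact 95% binomial intervals for counting error, over all kept barcodes and without macrophage barcodes. The 12-week-WT library stands highest at 6.24% and the 21-week-DB library lowest at 0.586%, and the order of the libraries is the same with either total.

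Each B cell was placed in 1 class by counts of stage genes. Cells with at least 2 UMIs of Jchain and 3 of other plasma cell genes were called plasma-gene cells, cells with at least 2 UMIs over Dntt, Rag1, Rag2, Vpreb1, Vpreb2 and Igll1 precursor-gene cells, and of the remainder those with a UMI of Ighd or Fcer2a the IgD/CD23 class. In all 4 libraries most B cells were of the IgD/CD23 class, with 270 of 329 in 12-week-WT, 81 of 98 in 12-week-DB, 169 of 197 in 21-week-WT and 37 of 51 in 21-week-DB. These are 82.1% (77.5 to 86.1), 82.7% (73.7 to 89.6), 85.8% (80.1 to 90.3) and 72.5% (58.3 to 84.1). After every cell was thinned to 2000 UMIs, which left out 9, 19, 5 and 3 shallower cells, the shares were 75.6%, 74.7%, 75.5% and 52.1%. Cells that reached none of these limits were 11.6%, 11.2%, 13.7% and 27.5% of the B cells, and 19.1%, 20.3%, 24.5% and 47.9% (33.3 to 62.8 in 21-week-DB) after thinning. The classes are ranges of a count and not cell types, and 30, 14, 29 and 17 cells of the IgD/CD23 class had a single UMI to place them there.

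Precursor-gene cells were found at 12 weeks and not at 21 weeks. They were 21 of 329 B cells in 12-week-WT (6.38%, 3.99 to 9.59) and 5 of 98 in 12-week-DB (5.10%, 1.68 to 11.5). None was seen among 197 B cells of 21-week-WT, which allows a share of up to 1.52% (3 of 197; exact binomial limit 1.86%), or among 51 of 21-week-DB, which allows up to 5.88% (exact limit 6.98%). Both 21-week-WT bounds lay below the interval of 12-week-WT, whereas those of 21-week-DB lay inside that of 12-week-DB, so that at this depth an absence in 21-week-DB was not detectable as different. No B cell at 21 weeks had even 1 UMI of the 6 genes. Without the shared barcodes the 12-week shares were 5.81% and 4.21%, and thinned to 2000 UMIs they were 5.31% and 3.80%.

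The genes of recombination came first in this order of development. Dntt stood at 102 UMIs in 6 B cells of 12-week-WT (69.8 CPM) and 7 UMIs in 3 cells of 12-week-DB (16.7 CPM), and at 0 in both 21-week libraries. Rag1 had 121 UMIs in 20 cells (82.8 CPM) and 8 in 2 cells (19.1 CPM), again with 0 at 21 weeks. Rag2 had 19 UMIs (13.0 CPM) and 2 UMIs (4.76 CPM), and 0 at 21 weeks. A large part came from the deepest B cell of 12-week-WT, which gave 51 of the 102 Dntt UMIs and 31 of the 121 of Rag1. Without the shared barcodes, Dntt was at 39 UMIs (28.0 CPM) in 12-week-WT and 6 UMIs (14.5 CPM) in 12-week-DB, Rag1 at 89 UMIs (63.9 CPM) and 8 UMIs (19.3 CPM), and Rag2 at 8 UMIs (5.74 CPM) and 2 UMIs (4.82 CPM). In the T cells of the same libraries at most 0.626% of cells had a Dntt UMI and 0.0614% a Rag1 UMI, and none had Rag2.

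The surrogate light chain followed the same division by age. Vpreb1 was at 190 UMIs (130 CPM, 11 cells) in 12-week-WT and 42 UMIs (100 CPM, 2 cells) in 12-week-DB, where 41 of the 42 came from 1 cell. Its partner Igll1 was at 140 UMIs (95.8 CPM, 9 cells) and 56 UMIs (133 CPM, 5 cells), of which 48 came from 1 cell of 12-week-DB. Vpreb2 was at 52 UMIs (35.6 CPM) and 20 UMIs (47.6 CPM, 14 from 1 cell). In 12-week-WT the 2 shared barcodes held 109 of the Vpreb1, 67 of the Igll1 and 37 of the Vpreb2 UMIs. Without shared barcodes the levels were 58.1, 52.4 and 10.8 CPM in 12-week-WT and 101, 130 and 48.2 CPM in 12-week-DB, so that the order of the 2 libraries for Vpreb1 depended on them. All 3 genes were at 0 in the B cells of both 21-week libraries, and at most 0.267% of T cells had Vpreb1, 0.125% Igll1 and none Vpreb2. Vpreb1 and Vpreb2 were near-identical along the aligned part of their start regions, with 153 of 156 bases (98.1%) the same. The 3' ends, from which the reads of these libraries come, were not compared. Whether reads were split between the 2 genes or lost is therefore not known, and their separate levels are uncertain.

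A further 5 genes of immature B cells were lower at 21 weeks. Vpreb3, a chaperone-like relative of the surrogate light chain that immature cells keep, was at 400.5, 298, 136 and 77.2 CPM. Sox4, a factor needed early in the lineage, was at 316, 305, 36.0 and 29.0 CPM, with 64 of the 128 UMIs of 12-week-DB from 1 cell. Myb, the progenitor factor, was at 130, 73.9 and 18.0 CPM and at 0 in 21-week-DB. Cd93, a surface mark of immature and transitional B cells, was at 87.6, 114, 33.8 and 4.83 CPM, and Cecr2 at 129, 76.2, 43.9 and 33.8 CPM. Cd93 is not particular to B cells here, since macrophages had it at 141, 178, 97.1 and 108 CPM, above the B cells of each library. For these 5 genes the B cells of both 12-week libraries stood above those of both 21-week libraries. Further genes of the precursor list were sparse and did not all follow this order. Il7r, the interleukin-7 receptor chain, had 52.0, 21.4, 36.0 and 72.4 CPM in B cells against 374 to 820 CPM in T cells, which express it strongly. Lef1 was at 48.6, 23.8, 14.6 and 4.83 CPM, Akap12 at 78.7, 38.1, 11.3 and 14.5 CPM, and Flt3 at 31.5, 52.4, 19.1 and 24.1 CPM. Erg (14 and 3 UMIs), Arpp21 (20 and 0 UMIs) and Bok (1 and 4 UMIs) were seen in B cells at 12 weeks only.

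**Figure D2:**
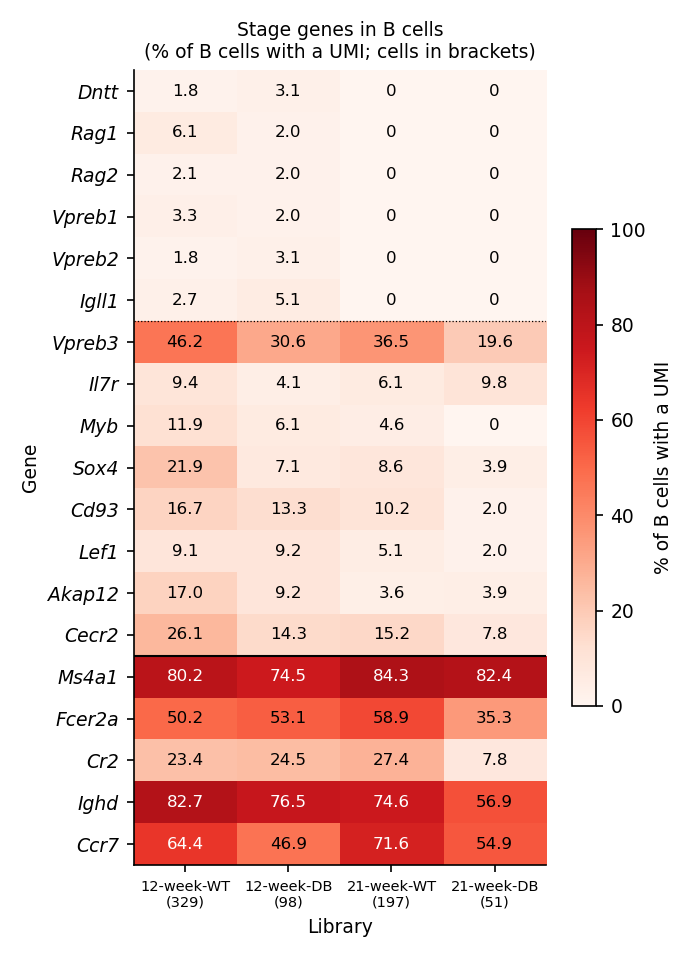
Percent of the B cells of each library (columns, cell numbers in brackets) with a UMI of each stage gene (rows), printed in each field and shown by its colour. The 6 recombination and surrogate light chain genes at the top are at 0 in both 21-week columns, while Ighd, in the lower block of mature genes, was found in 82.7%, 76.5%, 74.6% and 56.9%.

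The 21 precursor cells of 12-week-WT differed among themselves. Of the 6 cells with Dntt, none had 5 or more UMIs of Igkc, Iglc1 and Iglc2 together. A surrogate light chain gene was present in 10 cells, and all 6 cells with at least 2 UMIs of the division genes Mki67 and Top2a were among these 10. A further 11 cells had Rag1 or Rag2 with no surrogate light chain, and all 11 had at least 5 light chain UMIs. Ighm was present in all 21 cells, Vpreb3 in 20, Cd93 in 17, Il7r in 14 and Ighd in 10. The summed count of the 6 stage genes ran from 2 to 210 UMIs with a median of 11. Doublet scoring marked 1 of the 21. In 12-week-DB all 5 precursor cells had a surrogate light chain gene, 3 had Dntt, 2 had Rag1 or Rag2 and 3 had division genes. The shallowest of the 5, with 1110 UMIs of which 3 were of stage genes, was the barcode also found at 44397 UMIs in 12-week-WT, where 210 were of stage genes. The part of sharing between libraries in that cell was not tested.

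**Figure D3:**
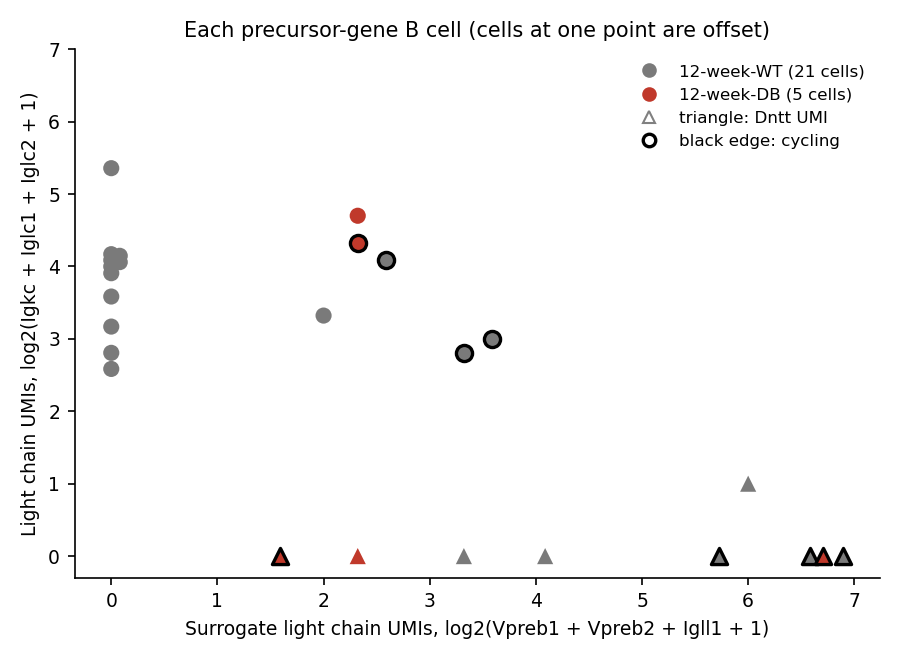
Each point is a precursor-gene cell of a 12-week library (grey, 21 of WT; red, 5 of DB), by log2 of 1 plus its UMIs of Vpreb1, Vpreb2 and Igll1 (x axis) and log2 of 1 plus its UMIs of Igkc, Iglc1 and Iglc2 (y axis). Triangles are cells with Dntt, all of which lie at the bottom with at most 1 light chain UMI, and the 11 WT cells at 0 on the x axis all have 5 or more.

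Beyond the genes that defined them, the precursor cells of 12-week-WT and the IgD/CD23 cells of the same library stood apart in genes of maturity. Fcer2a, itself used to choose the second class, and the complement receptor Cr2 were at 0 in the precursors, against 446 UMIs and 117 UMIs. Ms4a1 was at 40.6 CPM against 884 CPM, and Bank1, an adaptor of B cell receptor signalling, at 5.08 CPM against 374 CPM. The MHC class II gene H2-Eb1 was at 234 CPM against 1844 CPM, and Ciita, the factor that switches class II genes on, at 5.08 CPM against 124 CPM. On the other side Myb was at 746 CPM against 24.1 CPM and Mki67 at 604 CPM against 8.92 CPM. These are values of classes drawn from the same cells and carry no test.

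Stage genes outside the selected cells were rare. Barcodes that were not selected but had at least 2 UMIs of the 6 stage genes numbered 9, 6, 8 and 6. In 12-week-WT 3 of the 9 also reached the sum of 3 for Cd79a, Cd79b and Ebf1, and in the other libraries none did. Siglech, a marker of plasmacytoid dendritic cells, was found in 1, 2, 6 and 1 of the remaining barcodes. In these remaining barcodes the summed count of stage genes did not exceed 8 UMIs.

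As a measure of marrow in each library, 15 genes of granulocyte precursors and red cells were summed over all kept barcodes. They came to 694, 112, 149 and 38.6 CPM, and 13 of the 15 were highest in 12-week-WT. The granule gene Camp was the most abundant in 12-week-WT and 21-week-WT, at 200 and 79.7 CPM, with 30.5 CPM in 12-week-DB and 0.0184 CPM in 21-week-DB. Mpo, made by early granulocyte precursors, was at 40.9, 1.66, 1.14 and 3.97 CPM. The globin gene Hbb-bs was at 68.7, 5.64, 0.177 and 0.110 CPM. The marrow markers were thus highest in the library with most precursor B cells. Counted by barcode, those with at least 10 UMIs of the genes Mpo, Elane, Prtn3 and Ctsg numbered 19, 14, 5 and 9. With at least 10 UMIs of Ctsg alone there were 14, 8, 4 and 9. For Mpo there were 9, 3, 1 and 1, for Elane 6, 1, 1 and 1, and for Prtn3 9, 1, 1 and 1. Outside 12-week-WT the joint count thus came mainly from Ctsg, and whether those barcodes were granulocyte precursors was not tested. Barcodes with at least 20 UMIs of the granule genes Camp, Ltf and Ngp numbered 29, 15, 6 and 0, and those with at least 50 globin UMIs 2, 1, 0 and 0. Both 12-week libraries, the ones with precursor B cells, stood above both 21-week libraries in the 3 counts over several genes. Counted by Ctsg alone 12-week-DB stood below 21-week-DB, and by summed CPM it stood below 21-week-WT. Within the B cells the same 15 genes summed to 27.4, 23.8, 7.88 and 0 CPM, and Mpo had 4 UMIs in 12-week-WT B cells and 0 in the others. Of the UMIs behind these sums, Ctsg gave 5 of 40 in 12-week-WT, 7 of 10 in 12-week-DB and 6 of 7 in 21-week-WT. The part of marrow cells in the B cell and precursor shares was not tested.

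The question of how B cell genes differed between DB and WT was put at each age to ranked genes, those that reached 100 CPM in 1 of the 2 libraries and 50 UMIs over the pair. A gene was counted as higher or lower when the ratio was at least 2-fold and its interval left out 1. At 12 weeks, of 1682 genes 46 were higher in DB (2.73%) and 30 lower (1.78%), with a median log2 ratio over all genes of 0.03. At 21 weeks, of 1704 genes 88 were higher (5.16%) and 187 lower (11%), with a median of -0.11. A gene that reached 100 CPM in 1 of the 2 libraries only could be counted only as higher there, so its direction was set by the level limit. Genes at 100 CPM in both libraries made up 8 of the 46 higher and 5 of the 30 lower at 12 weeks, and 29 of the 88 and 49 of the 187 at 21 weeks. The counts of list members given next are therefore descriptions and support nothing. Single cells carried many of the higher genes. With the highest cell of each gene and library left out, 17 of the 46 and 57 of the 88 higher genes kept their call, against 29 of the 30 and 174 of the 187 lower genes. In 19 of the 46 genes higher at 12 weeks over 50% of the UMIs in DB came from 1 cell.

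Genes of recirculating follicular B cells were measured over all B cells of a library. Ighd, which helped to define the IgD/CD23 class, stood at 685, 810, 567 and 430 CPM and was found in 82.7%, 76.5%, 74.6% and 56.9% of B cells, against at most 2.63% of T cells. Ccr7, the chemokine receptor that guides lymphocytes into lymph nodes, was at 445, 281, 515 and 439 CPM, and S1pr1, the receptor for leaving tissue, at 206, 229, 347 and 343 CPM. Of 12 homing genes 7 had enough counts to be compared at each age, and none was 2-fold apart between DB and WT with an interval that left out 0, a count near the background shares of 2.73% and 1.78% at 12 weeks and 5.16% and 11% at 21 weeks. The MHC class II gene H2-Aa was at 4294, 5696, 4988 and 4657 CPM in B cells and at 1892, 1183, 1817 and 234 CPM in T cells, of which 61.2%, 45.5%, 63.0% and 12% had a UMI. The T cell level thus differed between the 21-week libraries far more than the B cell level. The part of free RNA in the B cell values was not measured, and a fixed 10% subtraction is given under the processing. None of the 9 ranked genes of the class II and costimulation list at 12 weeks, or of the 10 at 21 weeks, was past that limit, again beside 2.73% and 1.78%, and 5.16% and 11%, of all genes.

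Of genes that mark other mature subsets, the 11 of the marginal zone and B-1 list all had UMIs and summed to 661, 943, 650 and 724 CPM. Most of this sum came from Ahnak, at 335, 543, 373 and 294 CPM, and Cd9, at 117, 179, 51.8 and 145 CPM, both of which T cells also carried (1504 to 2174 CPM and 71.1 to 205 CPM). Of the 3 ranked members none passed the limit at 12 weeks, where 2.73% of all genes were higher and 1.78% lower. At 21 weeks Cd9 did (5.16% of all genes higher), but it reached 100 CPM in DB alone, 21 of its 30 UMIs there came from 1 cell, and within the IgD/CD23 class its log2 ratio was 0.09 (-1.32 to 1.29). Cd5, found on many B-1 cells, had 1, 1, 5 and 0 UMIs in the B cells, and Tbx21 had 7, 0, 5 and 0. Cxcr3 was at 0 in all 4 libraries.

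None of the 5 survival genes ranked at 12 weeks, or of the 4 at 21 weeks, passed the limit between genotypes, where 2.73% of all genes were higher and 1.78% lower at 12 weeks and 5.16% and 11% at 21 weeks, so that a count of 0 is near the background. Tnfrsf13c, the receptor for the survival factor BAFF, was at 437, 281, 437 and 333 CPM. The DB/WT log2 ratios of the ranked members of the list ran from -0.64 to 0.65 at 12 weeks and from -0.48 to 0.50 at 21 weeks. Mcl1, which blocks cell death, was at 741, 598, 746 and 536 CPM, and Bcl2 at 74.6, 117, 77.7 and 72.4 CPM. Birc3 was at 220, 198, 220 and 183 CPM, and Tnfrsf13b (TACI) at 106, 143, 89.0 and 57.9 CPM. Bcl2a1b was at 80.8, 52.4, 85.6 and 121 CPM and Traf3 at 41.1, 47.6, 36.0 and 33.8 CPM. Bcl2l1 had at most 13 UMIs in a library. Tnfrsf17 (BCMA, a plasma cell receptor) had 1, 8, 11 and 0 UMIs, and the 8 and the 11 came from the 2 plasma-gene cells described next.

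Plasma-gene cells were a single cell in 12-week-DB and a single cell in 21-week-WT. The 12-week-DB cell had 10489 UMIs, of which 838 were Igha, 1847 Igkc and 122 Jchain, and it was marked by the doublet score. The 21-week-WT cell had 38215 UMIs, of which 2677 were Ighm, 2094 Iglc2, 779 Jchain and 172 Mzb1. These 2 cells gave 122 of the 125 Jchain UMIs of all 12-week-DB B cells and 779 of the 780 of 21-week-WT, whereas 12-week-WT and 21-week-DB had 2 each. The selection requires Cd79a, which plasma cells can carry at a low level, so it may miss some of them. A further barcode of 12-week-DB met the plasma-gene counts and was outside the selection, with C1q or Cd3e UMIs beyond its limits. All kept barcodes together held 206, 781, 798 and 271 Jchain UMIs and 68, 924, 23 and 515 Igha UMIs, of which the B cells held 2, 125, 780 and 2 and 3, 838, 2 and 3. The main antibody genes are therefore given below with the UMIs of their highest cell.

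IgM was the isotype of nearly all cells. Among cells with at least 3 UMIs of heavy chain constant genes other than Ighd, Ighm was the highest in 316 of 316, 84 of 85, 174 of 174 and 37 of 39. The exceptions were the Igha cell of 12-week-DB and 2 cells of 21-week-DB with Ighg2b. Switched cells were thus 0%, 1.18%, 0% and 5.13% (0.627 to 17.3 in 21-week-DB), with intervals that overlapped. Ighg1, Ighg2c and Ighg3 had at most 2 UMIs in any library, and Ighe had none. Ighm was at 3627, 2542, 5674 and 1781 CPM, and 2677 of its 5038 UMIs in 21-week-WT came from the plasma-gene cell. Igkc was at 3918, 7726, 3307 and 4879 CPM, with 1847 of 3243 UMIs in 12-week-DB from 1 cell.

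Light chains were read per cell where Igkc, Iglc1, Iglc2 and Iglc3 together reached 5 UMIs, in 308, 88, 176 and 48 cells. Kappa made up over 90% of these UMIs in 87, 25, 47 and 20 cells and under 10% in 12, 1, 8 and 0. The remaining 209, 62, 121 and 28 cells (67.9%, 70.5%, 68.8% and 58.3%) had both chains. A B cell normally expresses a single light chain class, and free RNA, doublets and reads shared between constant genes were not told apart here. In T cells, Iglc2 was found in at most 1.36% of cells.

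Among receptor and lineage genes at 12 weeks, 1 of 11 ranked members passed the limit, where 1.78% of all genes were lower. This was Cd72, an inhibitory co-receptor of the B cell receptor, at 66.7 CPM in DB against 133 CPM in WT, a log2 ratio of -1.0 (-1.63 to -0.42). At 21 weeks it was at 67.6 and 130 CPM, a ratio of -0.94 (-1.85 to -0.13). Within the IgD/CD23 class the ratios were -0.81 (-1.58 to -0.12) and -0.63 (-1.63 to 0.24), the second with an interval that includes 0. It reached 100 CPM in WT alone at both ages. The level was near 130 CPM in both WT libraries and near 67 CPM in both DB libraries.

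Bach2, the factor that keeps B cells from becoming plasma cells, was the 1 of 15 ranked transcription factors past the limit at 12 weeks, beside 1.78% of all genes lower, and it was above 100 CPM in all 4 libraries. It was at 224 CPM in DB against 479 CPM in WT (log2 ratio -1.10, -1.42 to -0.79), and at 130 and 258 CPM at 21 weeks (ratio -0.99). Within the IgD/CD23 class it was -0.85 (-1.23 to -0.49) at 12 weeks and -0.61 (-1.28 to 0.0088) at 21 weeks, where the interval includes 0. In T cells, which also express Bach2, it was -1.10 and -0.84.

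Irs2, an adaptor of the insulin receptor, was the 1 of 5 ranked glucose-use genes past the limit at 12 weeks, beside 1.78% of all genes lower, and it was above 100 CPM in all 4 libraries. It was at 141 CPM in DB against 335 CPM in WT (log2 ratio -1.25, -1.67 to -0.86). At 21 weeks it was at 372 and 311 CPM (0.26). In T cells the ratios were 0.08 and 0.53. Ifi27l2a, an interferon-stimulated gene, was at 76.2 against 191 CPM at 12 weeks and 57.9 against 136 CPM at 21 weeks (log2 ratios -1.33 and -1.23), with T cell ratios of -1.26 and -1.17. Ifi27l2a reached 100 CPM in WT alone at both ages. In macrophages it was at 151 against 603 CPM at 12 weeks and 160 against 442 CPM at 21 weeks. The other ranked member of the interferon list did not pass the limit at either age. Of all genes, 1.78% were lower at 12 weeks and 11% at 21 weeks. Egr3, an early-response factor induced by the B cell receptor, was at 28.6 against 125 CPM at 12 weeks and 53.1 against 133 CPM at 21 weeks (log2 ratios -2.13 and -1.32), and it reached 100 CPM in WT alone at both ages. Its T cell ratios were -0.38 and -1.02. No cell gave more than 9 of its 183 UMIs in 12-week-WT. Maf was at 45.3 against 126 CPM at 12 weeks (log2 ratio -1.48, -2.24 to -0.79) and, below the level limits, at 91.7 against 73.2 CPM at 21 weeks (0.32, -0.50 to 1.08). Plekho2 was at 45.3 against 123 CPM (-1.44) and Rilpl2 at 54.8 against 133 CPM (-1.28).

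Many of the genes furthest apart at 12 weeks belonged to other lineages or rested on single cells. One cell gave over 50% of the UMIs in the higher library for 9 of the 10 genes furthest above WT and for 3 of the 10 furthest below, and the call remained without that cell for 3 and 9 of them. Neutrophil genes S100a8 and S100a9 were lower in 12-week-DB B cells, at 4.76 against 127 CPM and 14.3 against 238 CPM, and 97 of 186 and 186 of 347 UMIs in WT came from 1 cell each. The fibroblast gene Dcn was at 9.53 against 238 CPM, with 342 of 348 UMIs from 1 cell. Cxcl2 was at 66.7 against 256 CPM, with 172 of 374 UMIs from 1 cell. Gm43305 was at 162 against 446 CPM and was found in 219 cells of WT, of which 1 gave 146 of the 652 UMIs. Higher in 12-week-DB were Igha and Jchain (1 plasma-gene cell), the mast cell genes Tpsb2, Mcpt4, Cpa3, Cma1 and Tpsab1, and Plvap, Fabp4, Mgl2, Hspb1 and Lyz1. Of the UMIs in 12-week-DB, 1 cell gave 58 of 58 for Plvap, 52 of 52 for Fabp4, 103 of 106 for Tpsb2, 149 of 151 for Cma1 and 84 of 98 for Hspb1. In the same way 130 of 131 UMIs of Mcpt2, 73 of 75 of Mcpt4 and 72 of 73 of Cpa3 came from 1 cell. The 5 mast cell markers were thus higher at 12 weeks, beside 2.73% of all genes, on about 1 cell a gene, with summed levels of 1277 CPM in 12-week-DB B cells and 258 CPM in 12-week-WT. The neutrophil markers summed to 19.1 and 405 CPM, the macrophage markers to 364 and 369 CPM and the T cell markers, with Cd3e at 0 by selection, to 21.4 and 26.0 CPM. Among the macrophage markers, C1qa, C1qb and C1qc were held under 5 UMIs together by the selection. At 21 weeks the mast cell markers summed to 57.9 CPM in DB and 1249 CPM in WT, the neutrophil markers to 4.83 and 92.4 CPM and the macrophage markers to 536 and 249 CPM. Of 5 markers each, all mast cell and macrophage genes had a UMI in the B cells of every library, and 5, 2, 4 and 1 of the neutrophil genes did. Apoe was the most abundant macrophage marker in every library, and Mcpt2 the most abundant mast cell marker in both WT libraries and Cma1 in both DB libraries. The part of other cell types in these ratios was not tested.

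At 21 weeks the lower genes included several of the receptor and its signalling. Fcer2a was at 130 CPM in DB against 310 CPM in WT (log2 ratio -1.25, -1.88 to -0.68), whereas at 12 weeks it was at 276 and 305 CPM (-0.14). Fcgr2b, the inhibitory Fc receptor, was at 57.9 and 127 CPM (-1.14) and Cd24a at 164 and 329 CPM (-1.0). Within the IgD/CD23 class the ratios of Fcer2a and Cd24a were -0.93 and -0.90, under 2-fold, and that of Fcgr2b was -1.24. Since Fcer2a helped to define that class, its ratio there is no separate check. Fcer2a, Fcgr2b and Cd24a were 3 of 11 ranked receptor and lineage genes, against a background of 11% for lower genes. Fcer2a and Cd24a were above 100 CPM in both libraries whereas Fcgr2b was not. Of 8 ranked signalling genes 3 were lower and 1 higher, beside 11% and 5.16% of all genes, and of these 4 only Prkcb was above 100 CPM in both. The protein kinase gene Prkcb was at 111 against 304 CPM (-1.45, -2.14 to -0.84), the linker Blnk at 62.7 against 163 CPM (-1.38) and the PI3-kinase adaptor Pik3ap1 at 53.1 against 133 CPM (-1.32). The kinase Btk was higher, at 203 against 93.5 CPM (1.12, 0.55 to 1.67), while 12-week-DB and 12-week-WT had 97.7 and 93.1 CPM. In T cells at 21 weeks the ratios were -1.43 for Btk, -2.73 for Blnk, -1.73 for Cd24a, -1.46 for Fcgr2b, -0.41 for Pik3ap1 and -0.15 for Prkcb, so T cells were also lower for Blnk, Cd24a, Fcgr2b and Pik3ap1.

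Of 14 ranked transcription factors at 21 weeks 4 were lower in DB and none higher, beside 11% and 5.16% of all genes, and Pax5, Bcl11a and Ikzf3 were above 100 CPM in both libraries whereas Spib was not. Pax5 was at 236 against 478 CPM (log2 ratio -1.01, -1.47 to -0.58) and had been at 364 against 543 CPM at 12 weeks (-0.57). Spib (-1.17), Bcl11a (-1.05) and Ikzf3 (-1.0) were near their WT levels at 12 weeks, with ratios of -0.03, -0.13 and -0.05. Within the IgD/CD23 class the 21-week ratios were -1.0 for Pax5, -1.24 for Spib, -0.91 for Bcl11a and -0.80 for Ikzf3. The ratios rest on 49, 12, 27 and 21 UMIs in the 51 cells of 21-week-DB. In T cells the 21-week ratio was -3.72 for Bcl11a and 0.18 for Ikzf3.

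Egr1, which B cell receptor signalling induces within minutes, was at 86.9 CPM in DB against 465 CPM in WT at 21 weeks (log2 ratio -2.42, -3.19 to -1.74) and at 298 and 269 CPM at 12 weeks (0.15). It was the 1 of 15 ranked early-response genes past the limit, a share below the 11% of all genes that were lower, it reached 100 CPM in WT alone, and its T cell ratio at 21 weeks was -0.20. Pcna, a replication clamp, was at 53.1 against 143 CPM (-1.43). Zeb2 was at 77.2 against 180 CPM (-1.22), and at 909 against 1021 CPM in macrophages.

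Among cytokines Tgfb1, the anti-inflammatory and profibrotic factor, was at 403, 262, 363 and 125 CPM. The log2 ratio was -0.62 at 12 weeks, which did not reach 2-fold, and -1.53 (-2.17 to -0.95) at 21 weeks. Within the IgD/CD23 class it was -0.57 and -1.03, and in T cells -0.27 and -0.59. Tgfb1 had a UMI in 68.1%, 55.1%, 69.0% and 23.5% of B cells. Ltb, the lymphotoxin subunit that organises lymphoid tissue, was at 288, 343, 331 and 415 CPM. Il10 had 9, 0, 16 and 2 UMIs, Il6 had 0, 5, 18 and 1 (14 of the 18 from 1 cell), and Lta had 4, 1, 5 and 4. Tnf was at 37.7, 64.3, 40.5 and 14.5 CPM, with 19 of 27 UMIs in 12-week-DB from 1 cell, below the 165 to 260 CPM of T cells. Il12a and Ebi3, the subunits of interleukin-35, had 50, 15, 9 and 3 UMIs and 10, 3, 1 and 0 UMIs.

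**Figure D4:**
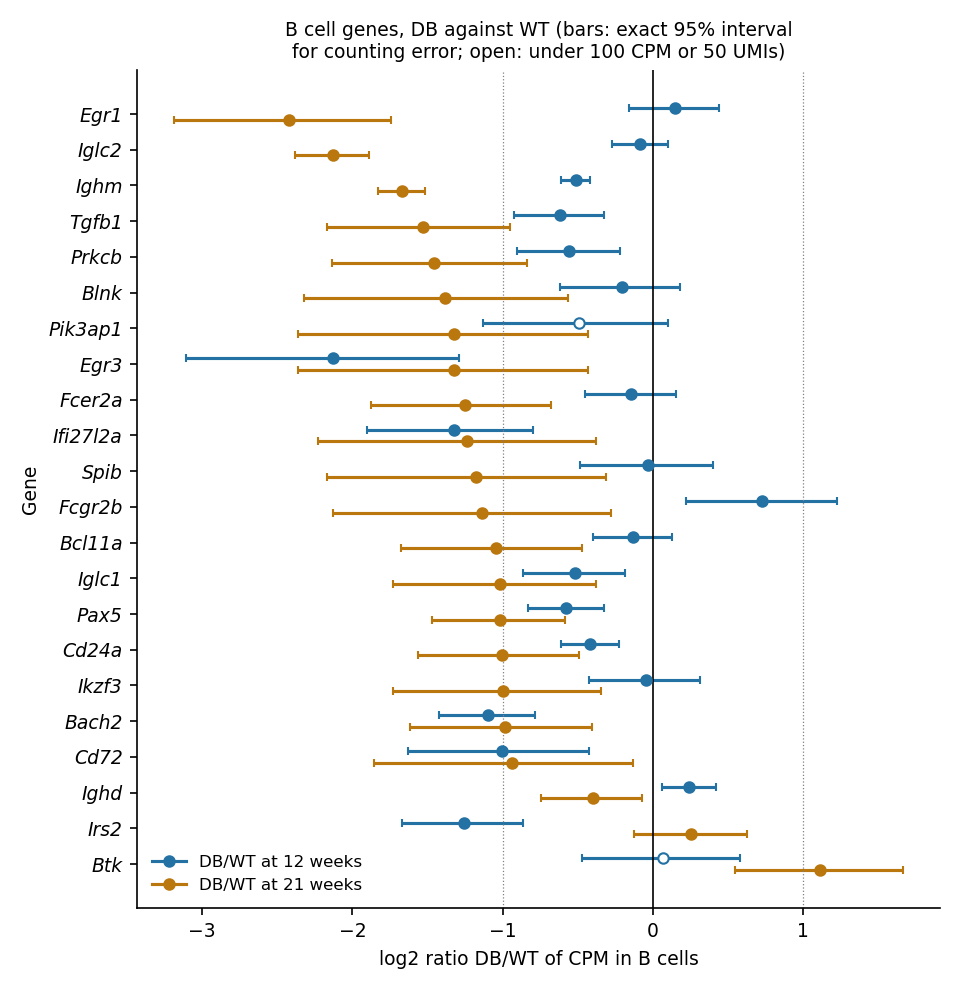
DB/WT log2 ratio in B cells at 12 and 21 weeks for B cell genes, with 95% intervals for counting error, dotted lines at 2-fold and open points for values below the level limits. The intervals of Cd72, Bach2 and Ifi27l2a lie left of 0 at both ages, those of Fcer2a, Egr1 and Spib left of 0 at 21 weeks and across 0 at 12 weeks, and that of Btk right of 0 at 21 weeks.

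The antibody genes of the list were lower in 21-week-DB for Ighm, Iglc1, Iglc2 and Iglc3, 4 of 6 ranked, beside 11% of all genes. For Iglc2 and Iglc3 the single plasma-gene cell of 21-week-WT gave 2094 of 2716 and 1662 of 1878 UMIs, and within the IgD/CD23 class the log2 ratios were -0.14 and 0.96 in place of -2.13 and -2.24. Ighm was -1.67 over all B cells, -0.49 within the class, and Iglc1 -1.02 and -0.75. The interval of Iglc1 within the class includes 0 (-1.67 to 0.046). With no limit on C1q and Cd3e its ratio over all B cells was 0.10. The plasma cell genes Jchain and Txndc5 (102 of 150 UMIs in WT from 1 cell) were also lower.

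Among the genes higher in 21-week-DB was the histone gene Hist1h2bc, at 729 CPM there against 41.8, 64.3 and 50.7 CPM in the other libraries, and it was found in 64.7% of these cells against 14.9%, 20.4% and 16.8%. Its DB/WT log2 ratio at 21 weeks was 3.85 (3.36 to 4.36), with no cell giving more than 22 of the 151 UMIs, and 3.81 within the IgD/CD23 class. T cells had a ratio of 1.97. Hist1h1e was at 212 against 31.5 CPM (2.75), Snhg9 at 169 against 31.5 CPM (2.42) and E330020D12Rik at 193 against 15.8 CPM (3.61). Mt1, a metallothionein, was at 748 against 185 CPM (2.02), but 81 of its 155 UMIs in DB and 130 of 164 in WT came from 1 cell each, with T cell and macrophage ratios of 2.08 and 2.67. Apoe, a macrophage gene, was at 449 against 134 CPM (1.74), and its macrophage ratio was 2.15. Ctla2a was at 169 against 29.3 CPM (2.53, with 16 of 35 UMIs from 1 cell), and its T cell and macrophage ratios were 1.11 and 1.86. Hspb1 was at 135 against 28.2 CPM (2.26), with ratios of 1.44 and 1.30 in T cells and macrophages, and those of Snhg9 were 1.17 and 1.29. Apod was at 0 in 21-week-WT and at 122 UMIs in 1 cell of 21-week-DB, which is at least 7.45 on the log2 scale when set against 3 UMIs, and Dcn, Gsn, Phlda1 and Cd9 also came mostly from 1 cell (111 of 112, 115 of 117, 35 of 40 and 21 of 30 UMIs). Among the genes furthest below 21-week-WT, Il1b, Mcpt2, Ccl4, Slpi, Thbs1 and Cma1 each had between 102 and 502 UMIs from 1 WT cell. Mcpt4, Tgfbi and Ccl5 had 97 of 122, 48 of 113 and 87 of 145 from 1 cell, and Slpi, Thbs1 and Ccl5 were at 0 in 21-week-DB.

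Some signs of RNA quality differed between genotypes in the B cells and in other cells. Gm42418, a transcript that overlaps a ribosomal RNA repeat, was at 68589, 43246, 75938 and 23430 CPM in B cells and 71161, 48262, 89734 and 24292 CPM in T cells. The DB/WT log2 ratio was -0.67 at 12 weeks and -1.70 at 21 weeks in B cells, and -0.56 and -1.89 in T cells. In macrophages it was -0.63 and -2.04. Lars2 had ratios of -0.80 and -2.13 in B cells, -0.50 and -1.86 in T cells and -0.13 and -1.56 in macrophages. The nuclear RNA Malat1 did not follow these, with -0.36 and 0.20 in B cells, -0.011 and 0.55 in T cells and 0.90 and 0.97 in macrophages. The mitochondrial gene mt-Nd2 had -0.93 and -1.05 in B cells, and mt-Nd3 -0.94 and -1.48. Their part in the ratios was not tested. The median mitochondrial share of B cell UMIs was 4.62%, 3.82%, 4.65% and 3.22%. The headers name Cell Ranger 5.0.0 for the 12-week files and 6.0.0 for the 21-week files, so software version and age cannot be told apart. The labels name 5.0.0 for all 4 libraries and the study's methods give a single version, so the sources conflict.

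**Figure D5:**
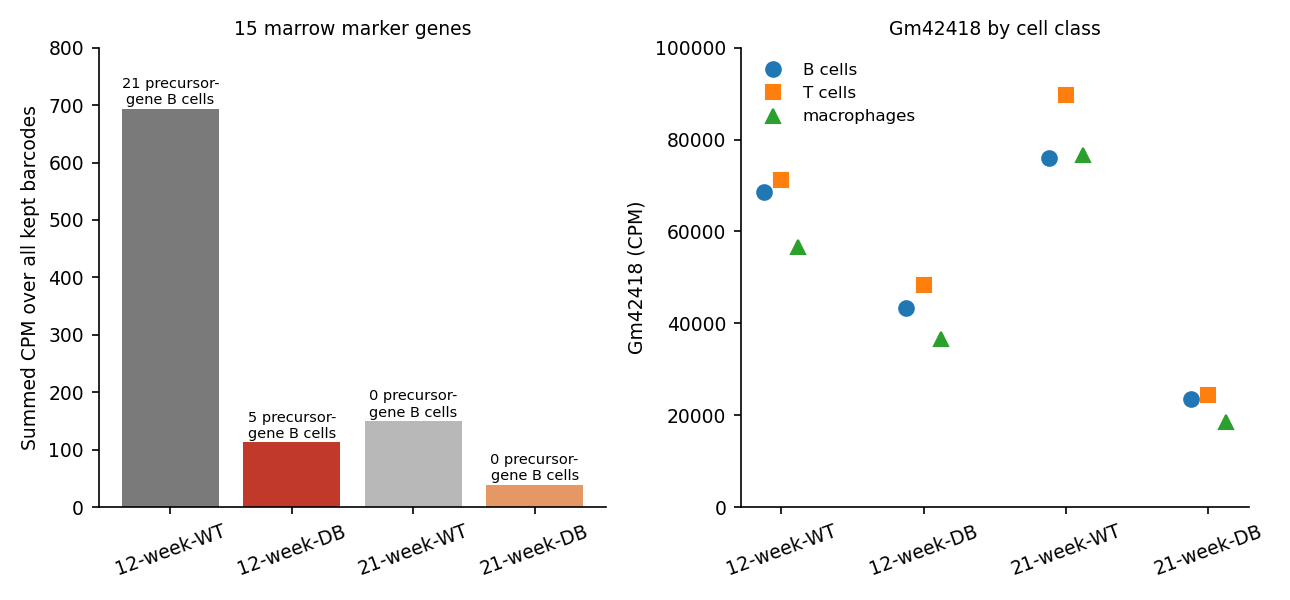
Left, summed level of 15 marrow markers over all kept barcodes of each library (CPM). Right, level of Gm42418 (CPM) in B cells, T cells and macrophages of each library. Marrow markers are highest in 12-week-WT at 694 CPM, and Gm42418 is lowest in 21-week-DB in all 3 cell types.

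Age was compared mainly within WT, since 21-week-DB had few cells. Of 1654 genes 29 were higher at 21 than at 12 weeks (1.75%) and 44 lower (2.66%). Within DB, 69 of 1693 genes were higher (4.08%) and 231 lower (13.6%), a comparison that shares the 51 cells of 21-week-DB with the genotype comparison at 21 weeks. The 5 ranked genes of the 18 precursor genes were lower at 21 weeks, but 4 of them, all except Vpreb3, had reached 100 CPM in 12-week-WT alone, so their direction was set by the level limit and the count is no support. Sox4 had a log2 ratio of -3.13 (-3.70 to -2.61), Myb of -2.85, Vpreb3 of -1.56 and Cecr2 of -1.55, and Vpreb1 had 190 UMIs at 12 weeks and 0 at 21 weeks. Over all genes, 6 of the 29 higher and 8 of the 44 lower were at 100 CPM at both ages. The division genes Top2a (15.8 against 157 CPM, -3.32) and Stmn1 (34.9 against 202 CPM, -2.53) reached the limit at 12 weeks alone, while Tubb5 (188 against 408 CPM, -1.12) was above it at both ages. Without the precursors, within the IgD/CD23 class, the ratios were -1.81 for Sox4, -1.18 for Myb, -0.95 for Vpreb3 and -1.01 for Top2a. Cd24a, high on immature B cells, was at 329 against 859 CPM (-1.39) and the factor Tcf3, below the limit at 21 weeks, at 66.5 against 163 CPM (-1.29). Cd86, a costimulatory ligand that rises on activated B cells, was higher at 21 weeks, at 166 against 62.3 CPM (1.41, 1.02 to 1.80), and the DB libraries had 179 and 83.4 CPM. Pde3b was at 157 against 45.2 CPM (1.79). Several other genes higher at 21 weeks rested on 1 cell. The plasma-gene cell gave most UMIs of Jchain, Iglc2 and Iglc3 and 172 of the 287 of Mzb1, and 1 cell gave 102 of 150 for Txndc5, 516 of 752 for Hsp90b1 and 92 of 168 for Manf.

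Vpreb3 and Cd24a also marked cells inside the IgD/CD23 class. Thinned to 2000 UMIs, Vpreb3 had a UMI in 30.4%, 20.3%, 17.3% and 17.1% of that class, against 0% of thinned T cells, and without thinning in 41.1%, 27.2%, 34.3% and 24.3%. Cd24a had a UMI in 57.8%, 40.6%, 40.5% and 31.4% after thinning, against at most 4.34% of T cells, and in 74.4%, 50.6%, 58.0% and 37.8% before. Division genes at 2 or more UMIs were found in 17, 7, 6 and 0 B cells, of which 6, 3, 0 and 0 were precursors. After thinning the division share was 3.75%, 5.06%, 0% and 0%.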

How the data were processed

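CD45+ cells of the hindpaw were measured by 10x 3' v3 single-cell RNA-seq, with 1 library per group. The authors deposited whole UMI counts per gene and barcode from Cell Ranger on mm10, without normalization; the ambient-RNA and doublet steps of the study are not in these counts. The members and gene lists were chosen with earlier results of these data known. Counts were summed over the B cells of a library and scaled to their total (CPM). Intervals were at 95%: exact binomial for shares, exact Poisson for CPM, conditional binomial for ratios and a log approximation for the ratio of shares. PCR and cell sampling are not in them. The libraries held 47851794, 57025899, 69626521 and 54989592 UMIs. Doublets were scored with Scrublet in scanpy 1.11.5 and marked at 0.8% per 1000 barcodes, and marked cells were kept. Named genes were listed genes past 2-fold (up to 4 a list and age), the 10 largest rises and falls at each age, and all precursor, immunoglobulin, cytokine and survival genes; genes of the age comparison, of subsets and of homing were named after their values were seen. 251 of 252 listed genes were in the files. Other alternatives were added after seeing the data: leaving out plasma-gene cells, the highest cell of each gene, and barcodes found in several libraries. The code was tested on simulated data.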

Additional observations from a re-analysis of the deposited data

Results flagged for a closer look

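The 10 genes given first were each at least 2-fold apart between genotypes at 1 age or both. Their DB/WT log2 ratios in B cells pointed one way at 12 weeks and the other at 21 weeks. The intervals left out 0 at both ages. With 1 library per group the difference was not tested. Fcgr2b, the inhibitory Fc receptor, stood at 0.73 at 12 weeks and -1.14 at 21 weeks, and within the IgD/CD23 class at 0.58 with an interval that includes 0 (-0.083 to 1.20) and at -1.24. Zeb2 stood at 0.66 and -1.22, and Il1b at 0.62 and -5.38. For Zeb2, 1 cell gave 41 of the 144 UMIs of 12-week-DB. Zeb2 had a UMI in 26.5% of B cells there against 34.3% in 12-week-WT. In macrophages Zeb2 was at 1363, 1259, 1021 and 909 CPM. The plasma cell gene Jchain stood at 7.76 and -6.51, from 1 cell on each side. Mast cell genes stood at 2.39 and -3.55 (Cma1), 1.41 and -5.64 (Mcpt2) and 3.33 and -4.83 (Mcpt4). For each of them 1 cell gave most UMIs of the higher library at each age. Ccl4 stood at 2.50 and -3.78, Tgfbi at 1.26 and -4.72, and Dcn at -4.64 and 7.32. Dcn likewise came mostly from 1 cell of the higher library at each age. Ighd, under 2-fold at both ages, also lay on opposite sides of 0, at 0.24 (0.060 to 0.42) and -0.40 (-0.74 to -0.072). Over all 1422 genes ranked at both ages, 80 had intervals on opposite sides of 0.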

How the results depend on the processing

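No paired analysis was possible because each group had 1 library. The share ratios kept their direction under the alternatives run; the ratio at 12 weeks moved to 0.309 without cells carrying 3 or more UMIs of other lineages. With 20 UMIs and no CPM limit, 324 genes were higher and 207 lower in DB at 12 weeks, and 268 and 506 at 21 weeks. With 10% ambient counts subtracted, 7 of the values checked moved and 42 stayed the same, as did the 4 main values. With the highest cell of each gene and library left out and the level limits applied again, 9 and 50 were higher at 12 and 21 weeks. Log2 ratios that changed sign did so as follows, and the cause was not tested beyond the cells left out. In the IgD/CD23 class alone they were -0.87 for Hspb1 at 12 weeks, and -0.55 for Phlda1, -1.91 for Gsn, 0.96 for Iglc3 and 2.42 for Jchain at 21 weeks. With classes weighted as in WT, Iglc3 was at 0.93 and Jchain at 2.76 at 21 weeks. Without plasma-gene cells, Txndc5 was at 0.036, Iglc3 at 0.82 and Jchain at 3.04. Without cells carrying other lineages' UMIs, Cma1 was at -0.70 and Dcn at 0.30 at 12 weeks, and Txndc5 at 0.058, Mcpt2 at 0.33, Iglc3 at 0.53, Mcpt4 at 1.14 and Cma1 at 1.55 at 21 weeks. Without each gene's highest cell, Cma1 was at -2.72, Cpa3 at -2.59, Mcpt4 at -0.90, Tpsb2 at -0.52 and Dcn at 0.80 at 12 weeks, and Gsn at -2.42, Phlda1 at -0.67, Iglc3 at 0.59 and Jchain at 2.10 at 21 weeks. Dcn at 12 weeks was at 0.20 with at most 5% mitochondrial UMIs and at 0.86 without the highest doublet scores. With no limit on C1q and Cd3e, Cd9 was at -0.084 and Iglc1 at 0.10 at 21 weeks. Depth limits 21-week-DB most: 51 cells, where 3 UMIs are 14.5 CPM.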
